A study of Mus musculus with 34 samples.

Results

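The 4 genes described here encode acute phase proteins: the serum amyloid A genes Saa1, Saa2 and Saa3, and lipocalin 2 (Lcn2). They were chosen by name, with earlier results of these data known, as the probes whose RefSeq accession maps to these genes. They are 4 of the 20660 named genes on the array. Each had 1 probe with 1 spot, so no other probe could serve as a check. Total RNA was measured in lungs of C57BL/6 mice (females, aged 5 to 7 weeks) on 34 two-colour arrays, each setting 1 lung RNA (Cy5) against a universal reference RNA from 11 mouse cell lines (Cy3). The mice had received a single intratracheal instillation of a carbon nanotube material in 40 µl, and tissue was taken 28 days later. The groups were NRCWE-043 at 54 µg (n = 5) and 18 µg (n = 5), NRCWE-044 at 54 µg (n = 5) and 18 µg (n = 6), NRCWE-045 at 54 µg (n = 5) and 18 µg (n = 3), and controls at 0 µg (n = 5). The title of control replicate 3 names NRCWE-043 beside 0 µg, while its treatment label reads Control, and it was used as a control. What the controls were instilled with is not given in the labels, nor whether each array is a separate animal, so p-values measure the spread between these arrays.

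Serum amyloid A proteins are small apolipoproteins of high-density lipoprotein whose synthesis rises in the acute phase response under interleukin-1, interleukin-6 and tumour necrosis factor. In mice, Saa1 and Saa2 are made mainly in the liver, while Saa3 is made mainly outside it, by macrophages, fat cells and epithelium, and is known in mouse lung as a marker of the response to inhaled particles. Lipocalin 2 binds the iron-carrying siderophores of bacteria and is released by neutrophils, macrophages and airway epithelium.

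Saa1, Saa2 and Saa3 lie together on chromosome 7, in the RefSeq order Saal1, Saa3, Saa4, Saa1, Saa2, Hps5, and Lcn2 lies on chromosome 2. RefSeq lists Saa1 and Saa2 as each other's synonyms, and here each name follows the RefSeq accession of its probe. The 250 bases before the start of each gene are shown because Saa1 and Saa2 are near copies there and because Saa3 and Lcn2 varied together over the arrays (RefSeq, GRCm38.p6; 5′ to 3′; capitals mark a match to the C/EBP motif TTNNGCAA on either strand).
Saa3 (chr7:46715677-46715926, minus strand): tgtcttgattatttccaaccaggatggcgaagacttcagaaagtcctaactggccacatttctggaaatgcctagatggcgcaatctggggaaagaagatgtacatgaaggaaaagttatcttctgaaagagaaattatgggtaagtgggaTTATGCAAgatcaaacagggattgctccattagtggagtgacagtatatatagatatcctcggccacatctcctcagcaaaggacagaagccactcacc
Saa1 (chr7:46742981-46743230, minus strand): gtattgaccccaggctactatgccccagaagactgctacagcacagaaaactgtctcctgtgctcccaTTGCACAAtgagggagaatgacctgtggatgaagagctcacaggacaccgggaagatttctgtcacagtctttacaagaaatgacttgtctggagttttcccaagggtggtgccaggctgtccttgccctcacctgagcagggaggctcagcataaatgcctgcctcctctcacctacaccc
Saa2 (chr7:46751583-46751832, plus strand): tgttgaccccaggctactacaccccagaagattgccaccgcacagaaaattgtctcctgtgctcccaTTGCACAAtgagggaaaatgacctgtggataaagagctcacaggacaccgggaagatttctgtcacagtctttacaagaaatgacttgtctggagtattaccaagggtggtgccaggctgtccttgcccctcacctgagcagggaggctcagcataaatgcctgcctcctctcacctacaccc
Lcn2 (chr2:32387740-32387989, minus strand): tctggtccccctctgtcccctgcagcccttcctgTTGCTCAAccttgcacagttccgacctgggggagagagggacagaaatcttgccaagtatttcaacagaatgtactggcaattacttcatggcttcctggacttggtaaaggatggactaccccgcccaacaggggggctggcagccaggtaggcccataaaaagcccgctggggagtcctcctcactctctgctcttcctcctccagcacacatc
Over windows that also include the 50 bases after the start, Saa1 and Saa2 were identical at 287 of 301 aligned positions (95.3%), against 39.3% to 47.9% for the other 5 pairs. Each of the 4 windows held 1 match to the C/EBP motif, which 10.8% of 32851 RefSeq promoter windows of the same length held. It began 99 bases before the start in Saa3, 182 in Saa1, 183 in Saa2 and 216 in Lcn2. No match to the STAT motif TTCNNNGAA (8.3% of windows) or to a strict NF-kB consensus of 10 letters (8.46% of windows) lay in these windows. Sites that depart from these letters were not searched. A match in these letters is a description and not a measured site, and lack of a match does not show that a factor has no site.

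The share of probes detected well above background per array was 52.2% to 69.4% for Cy5 and 46.2% to 66.5% for Cy3. The number of arrays limits the precision of every value. All 7 alveolar type 2 and all 8 alveolar macrophage markers were well above background on 34 of 34 arrays. So were the liver genes Apoa2 and Ahsg and the fat cell genes Retn, Cidec and Plin4. Detection alone therefore does not tell tissues apart. Saa1, Saa3 and Lcn2 were well above background in Cy5 on 34 of 34 arrays. Saa2 was so on 2 of 34, 1 short of the 3 arrays needed for testing, so 3 of the 4 genes were tested. Values below are log2 ratios of lung over reference RNA, which compare a gene between lungs but not with another gene.

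Among the 3 tested genes, Saa3 had the largest difference from controls at 54 µg. Replicates are numbered only as names. With NRCWE-043 at 54 µg, the log2 ratios of Saa3 were 0.44, -3.18, -3.38, -1.96 and -3.46. With NRCWE-044 at 54 µg they were -2.90, -2.73, -3.75, -2.87 and -1.76. With NRCWE-045 at 54 µg they were -3.43, -3.51, -3.16, -1.67 and -2.29. A single lung, replicate 1 of NRCWE-043 at 54 µg, lay far above all others, with a Cy5 signal of 8001 against at most 1624.5 elsewhere at this dose. With NRCWE-043 at 18 µg the ratios were -3.42, -3.91, -2.04, -3.08 and -4.31. With NRCWE-044 at 18 µg they ran between -4.06 and -3.53 around a median of -3.63 in 6 lungs. With NRCWE-045 at 18 µg they were -2.67, -3.68 and -2.68. The 18 µg lungs were mostly in the range of the controls, and those of NRCWE-044 were the most alike. The 5 controls had -3.14, -4.02, -4.43, -3.72 and -4.02. Of the 15 lungs at 54 µg 8 lay above every control, as did 4 of the 14 at 18 µg.

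The group means of Saa3, highest first, were -2.31 ± 1.65 for NRCWE-043 at 54 µg, -2.80 ± 0.71 for NRCWE-044 at 54 µg, -2.81 ± 0.80 for NRCWE-045 at 54 µg, -3.01 ± 0.58 for NRCWE-045 at 18 µg, -3.35 ± 0.87 for NRCWE-043 at 18 µg, -3.71 ± 0.21 for NRCWE-044 at 18 µg and -3.87 ± 0.48 in controls (SD). No 2 neighbours in this order differed beyond their spread. Against controls the log2 change was 1.56 ± 0.51 for NRCWE-043, 1.07 ± 0.51 for NRCWE-044 and 1.06 ± 0.51 for NRCWE-045 at 54 µg (SE). With the 3 materials counting equally, Saa3 averaged 1.23 ± 0.42 log2 units above controls at 54 µg, a 2.34-fold ratio with a 95% interval of 1.30 to 4.22. This difference did not pass the test (limma, unadjusted p = 0.0061, adjusted p = 0.69 over 29316 units). In that comparison 9 of the 29316 units had a larger log2 change than Saa3. At 18 µg the change was 0.52 ± 0.51 for NRCWE-043, 0.16 ± 0.49 for NRCWE-044, 0.86 ± 0.59 for NRCWE-045 and 0.51 ± 0.43 over the 3 materials (smallest adjusted p = 0.796). The 54 µg lungs exceeded the 18 µg lungs by 0.72 ± 0.31 over the 3 materials (unadjusted p = 0.026, adjusted p = 0.9998).

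**Figure D1:**
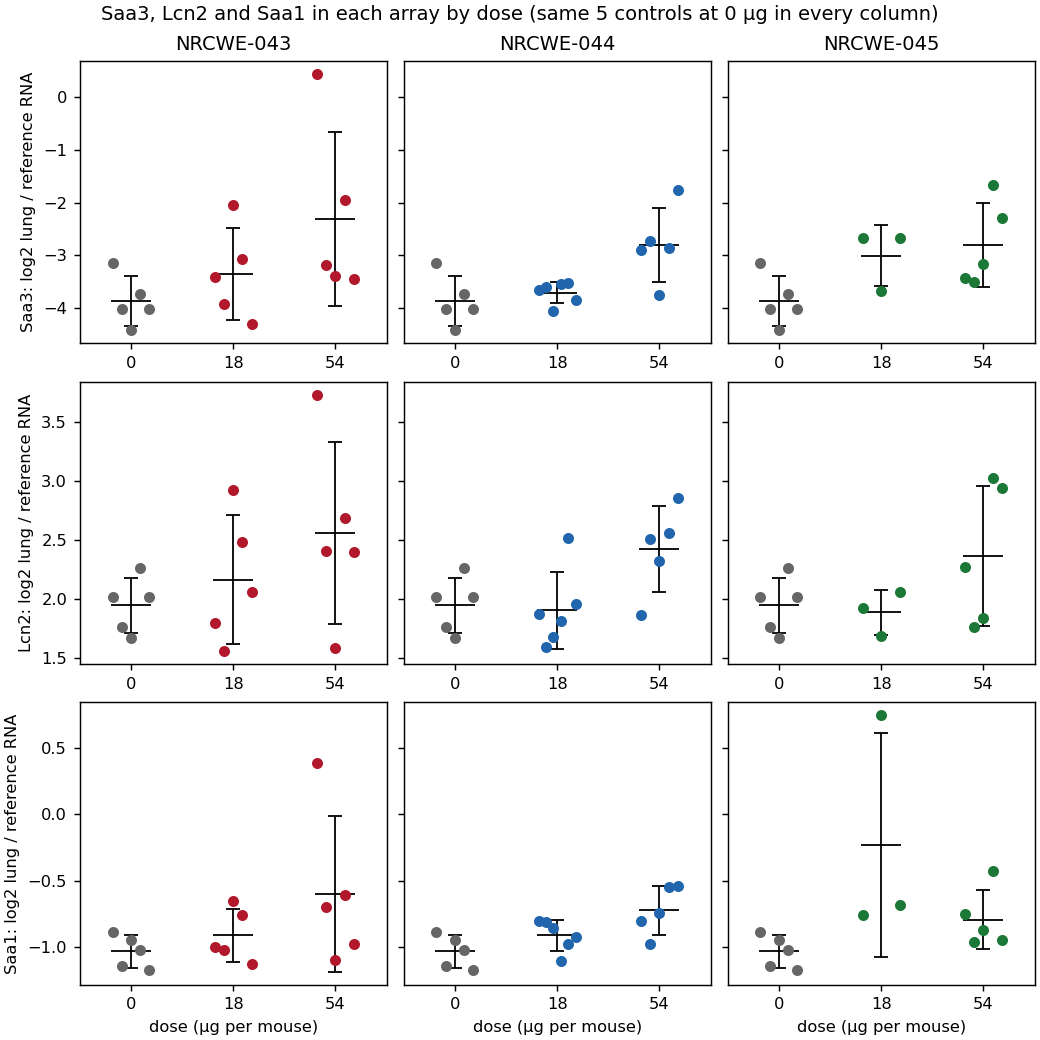
Log2 ratio of lung over reference RNA for Saa3, Lcn2 and Saa1 in each array (points) at 0, 18 and 54 µg of each material, with group mean and SD (bars); the same 5 controls stand at 0 µg in each column. Replicate 1 of NRCWE-043 at 54 µg lies highest for Saa3 and Lcn2, and replicate 2 of NRCWE-045 at 18 µg lies highest for Saa1.

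The Saa3 values rested in part on single lungs. Without replicate 1 of NRCWE-043 at 54 µg, the change of that group was 0.87 rather than 1.56, and that over the 3 materials was at its lowest of 20 such fits, 1.00 rather than 1.23. Without replicate 3 of NRCWE-043 at 18 µg, which had -2.04, the change of its group was 0.19 rather than 0.52. Control replicate 3, the one with the conflicting title, had the lowest Saa3 of the controls (-4.43) and was the 1 control on slide 2. Without it the change over the 3 materials at 54 µg was 1.09 for Saa3 (unadjusted p = 0.024) and 0.44 for Lcn2 (unadjusted p = 0.10).

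The arrays lay on 6 slides scanned in turn, and slides 4 and 6 held no control. Against the controls of the same slide, Saa3 was higher in 10 of 11 lungs at 54 µg (median difference 0.92, range -0.02 to 4.02) and in 8 of 9 at 18 µg (median 0.65, range -0.07 to 2.39). Each of these slides had 1 or 2 controls, which its lungs shared, so these counts are not independent. On slide 2 all lungs were set against control replicate 3 alone, the lowest of the controls (-4.43). The 54 µg mean exceeded the 18 µg mean on 5 of 6 slides, by 1.28, 0.17, 1.20, 1.53 and 0.44 on slides 1, 2, 4, 5 and 6. On slide 3 it lay below by -0.35. Slides 3 and 5 held 1 lung at 18 µg, and slide 6 held 1 at 54 µg. On slides 3 to 6 the materials differed between doses. Slide 1 held the outlying lung (0.44). The other 54 µg lungs there had -2.90 and -3.43, against -3.42, -3.66 and -2.67 at 18 µg. The plot by slide shows the same directions for Lcn2.

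**Figure D2:**
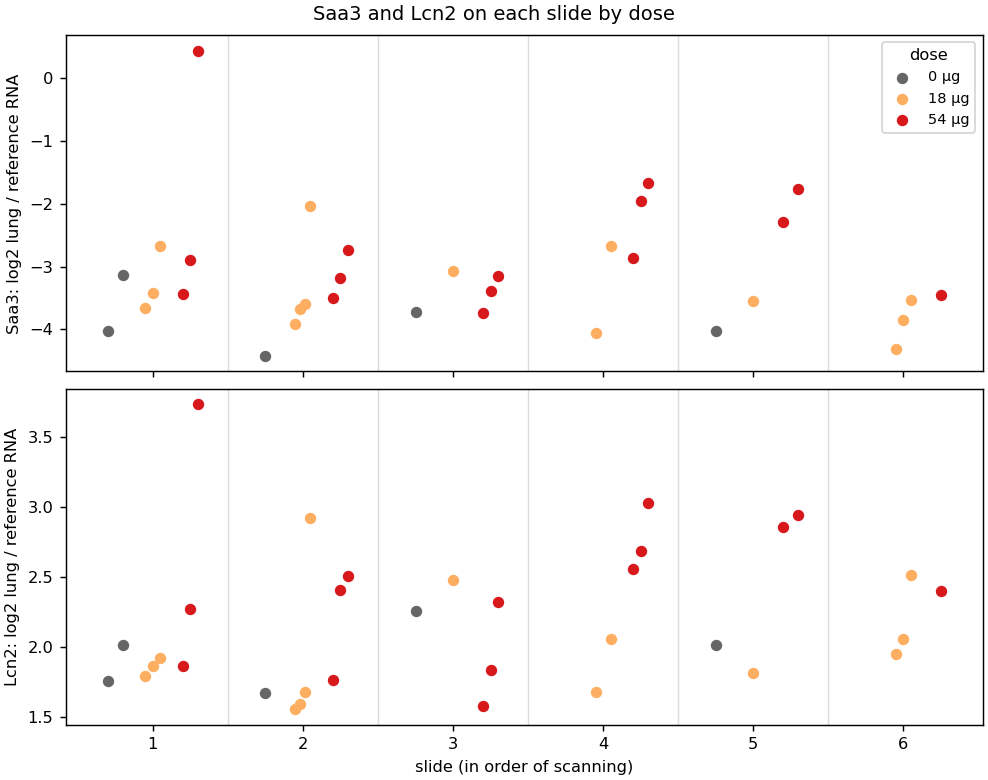
Log2 ratio of Saa3 (upper) and Lcn2 (lower) in each array by slide, with doses of 0, 18 and 54 µg side by side within a slide. Slide 3 is the one on which 54 µg lungs do not lie above 18 µg lungs on average, and slides 4 and 6 hold no control.

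Lcn2, the siderophore-binding protein, differed from controls less than Saa3 did, and again mainly at 54 µg. At 54 µg the log2 ratios were 3.74, 2.41, 1.58, 2.69 and 2.40 with NRCWE-043. They were 1.86, 2.51, 2.32, 2.56 and 2.86 with NRCWE-044. They were 2.27, 1.76, 1.84, 3.03 and 2.94 with NRCWE-045. The same lung that was highest for Saa3 was highest here. At 18 µg they were 1.79, 1.56, 2.93, 2.48 and 2.06 with NRCWE-043, and 1.92, 1.68 and 2.05 with NRCWE-045. With NRCWE-044 at 18 µg they ran between 1.59 and 2.51 around a median of 1.84. The 5 controls had 2.02, 1.76, 1.67, 2.26 and 2.02. Of the lungs at 54 µg 11 of 15 lay above every control, and of those at 18 µg 3 of 14 did.

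The group means of Lcn2, highest first, were 2.56 ± 0.78 for NRCWE-043, 2.42 ± 0.37 for NRCWE-044 and 2.37 ± 0.59 for NRCWE-045 at 54 µg, then 2.16 ± 0.55 for NRCWE-043 at 18 µg, 1.94 ± 0.23 in controls, 1.90 ± 0.33 for NRCWE-044 at 18 µg and 1.89 ± 0.19 for NRCWE-045 at 18 µg. No 2 neighbours differed beyond their spread. The log2 change against controls was 0.62, 0.48 and 0.42 for the 3 materials in number order at 54 µg, each ± 0.29, and 0.51 ± 0.24 over the 3 materials (unadjusted p = 0.040, adjusted p = 0.86), a 1.42-fold ratio with a 95% interval of 1.02 to 1.98. At 18 µg it was 0.22 ± 0.29, -0.04 ± 0.28 and -0.06 ± 0.33, and 0.04 ± 0.24 over the 3 materials. Without replicate 3 of NRCWE-043 at 18 µg, which had 2.93, the 0.22 was 0.028. The 54 µg lungs exceeded the 18 µg lungs by 0.47 ± 0.17 (unadjusted p = 0.011), and 84 of 29316 units had a larger change there. Without replicate 1 of NRCWE-043 at 54 µg its group's change was 0.32, and without replicate 4 or 5 of NRCWE-045 at 54 µg that group's change was 0.26 or 0.28. Within slides, Lcn2 was above the slide's controls in 8 of 11 lungs at 54 µg (median 0.38) and in 4 of 9 at 18 µg (median -0.02). As for Saa3, the lungs of a slide shared these controls. The 54 µg mean was higher than the 18 µg mean on slides 1, 2, 4, 5 and 6 and lower on slide 3 (-0.57). Slides 3, 5 and 6 had 1 lung at 1 of the doses, and slide 1 held replicate 1 of NRCWE-043 at 54 µg (3.74).

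The Lcn2 spot was also bright in the reference channel of the outlying lung's array. Its Cy3 signal was 9388 there, against a median of 3096.5 on slide 1, and over the 34 arrays the log2 Cy5 and Cy3 signals of Lcn2 correlated at r = 0.88, against 0.37 for Saa3 and 0.66 for Saa1. The Cy3 signal of the Lcn2 spot thus moved with its Cy5 signal, and its part in the log2 ratios was not tested beyond the setting that follows. With the Cy5 channel alone, a setting chosen after the data were seen, the Lcn2 change over the 3 materials at 54 µg was the highest of 9 settings, 0.92.

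**Figure D3:**
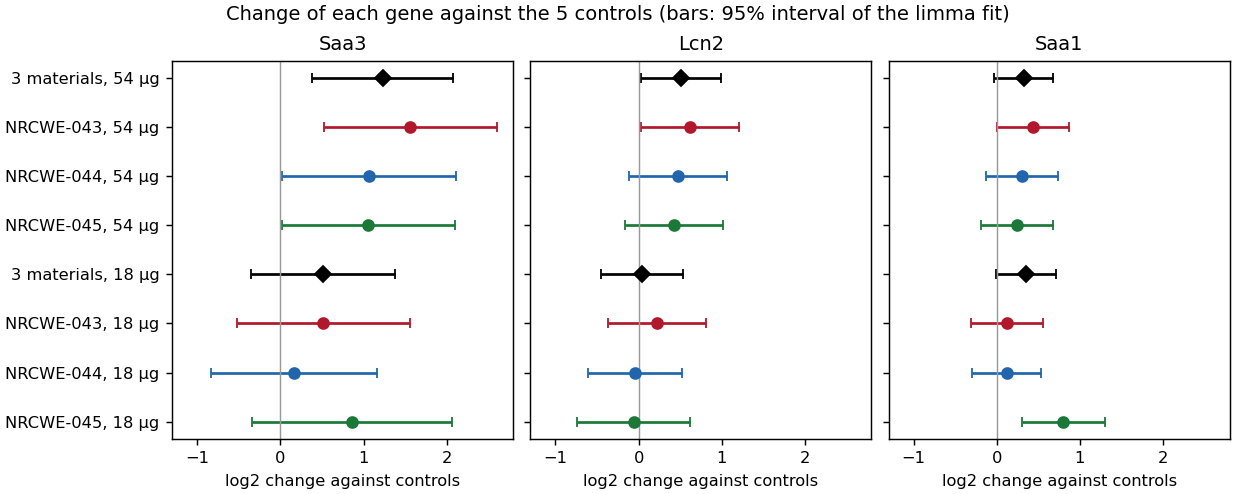
Log2 change against the 5 controls for Saa3, Lcn2 and Saa1, at each dose of each material and for the 3 materials together (diamonds), with 95% intervals from the limma fit. The 54 µg changes of Saa3 lie between 1.06 and 1.56 and those of Lcn2 between 0.42 and 0.62.

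Saa1, made mainly by the liver, had its highest mean with NRCWE-045 at 18 µg. With NRCWE-045 at 18 µg the log2 ratios were -0.76, 0.74 and -0.68. With NRCWE-045 at 54 µg they were -0.75, -0.96, -0.87, -0.43 and -0.95. With NRCWE-043 they were 0.38, -0.70, -1.10, -0.61 and -0.98 at 54 µg and -0.998, -1.02, -0.65, -0.76 and -1.12 at 18 µg. The highest of all was replicate 2 of NRCWE-045 at 18 µg. With NRCWE-044 they were -0.81, -0.97, -0.75, -0.55 and -0.54 at 54 µg and lay between -1.10 and -0.80 around a median of -0.89 at 18 µg. The 5 controls had -0.88, -1.14, -0.95, -1.02 and -1.17.

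The group means of Saa1, highest first, were -0.23 ± 0.84 for NRCWE-045 at 18 µg, -0.60 ± 0.58 for NRCWE-043 at 54 µg, -0.72 ± 0.18 for NRCWE-044 at 54 µg, -0.79 ± 0.22 for NRCWE-045 at 54 µg, then -0.91 ± 0.20 for NRCWE-043 and -0.91 ± 0.11 for NRCWE-044 at 18 µg, and -1.03 ± 0.12 in controls. The values of neighbours in this order overlapped. With NRCWE-045 at 18 µg Saa1 was 0.80 ± 0.25 log2 units above controls (limma, unadjusted p = 0.0027, adjusted p = 0.29). The 3 lungs lay above all 5 controls, as 3.19% of the 29316 units did in that comparison. Without replicate 2 of that group the change was 0.31, and that of the 3 materials at 18 µg was 0.18 rather than 0.35. At 54 µg the change was 0.43, 0.31 and 0.24 for the 3 materials in number order, each ± 0.21, and 0.33 ± 0.17 over the 3 materials (adjusted p = 0.91). Without replicate 1 of NRCWE-043 its group's change was 0.19.

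Saa2 was near background in nearly all lungs. Its Cy5 signal was 295 in replicate 2 of NRCWE-045 at 18 µg and 123 in replicate 1 of NRCWE-043 at 54 µg, the 2 arrays well above background, against 79 to 90 in the 5 controls. These are the same 2 lungs that were highest for Saa1. The 2 genes are near copies before their starts, and whether their probes share signal was not tested. With NRCWE-045 at 18 µg 1 of 3 arrays was measured. Replicates 1 and 3 of that group were not well above background (83.5 and 94), so no fold over controls is given for it. The Cy3 signal of the Saa2 spot was well above background on 0 of 34 arrays, so its log2 ratios carry little beyond those 2 Cy5 values.

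Liver genes moved with Saa1 and Saa2 in 1 lung. The mean log2 ratio of 9 liver marker genes, as a difference from the control mean, was 4.27 in replicate 2 of NRCWE-045 at 18 µg, with albumin (Alb) at 4.81 and fetuin-A (Ahsg) at 4.88. In the other 2 lungs of that group it was 0.62 and 0.38. It ran between -0.11 and -0.06 with NRCWE-043 at 54 µg, between -0.10 and 0.88 with NRCWE-044 at 54 µg and between -0.07 and 1.47 with NRCWE-045 at 54 µg. It ran between -0.19 and 0.11 with NRCWE-043 and NRCWE-044 at 18 µg, and between -0.03 and 0.05 in controls. The other lung high for Saa1, replicate 1 of NRCWE-043 at 54 µg, had -0.10, no higher than its group. Of the 9 liver genes 2 were well above background on every array, Apoa2 and Ahsg. Apoh, Hpd, Apoc3 and Fgb were so on 4, 5, 8 and 11 arrays, so most of their ratios lay near background. At 54 µg over the 3 materials 8 of the 9 lay above controls (median change 0.12), as did 49.2% of all units. At 18 µg 9 of 9 did (median 0.61), against 50.3% of all units, and 0 passed the test. Without replicate 2 of NRCWE-045 at 18 µg, a setting chosen after the data were seen, 7 of 9 lay above controls at 18 µg, with a median of 0.16. That lung was also high for fat cell markers (1.49, against at most 1.05 in controls) and airway secretory markers (1.53, against at most 1.17). The part of these genes in the Saa1 and Saa2 values was not tested.

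**Figure D4:**
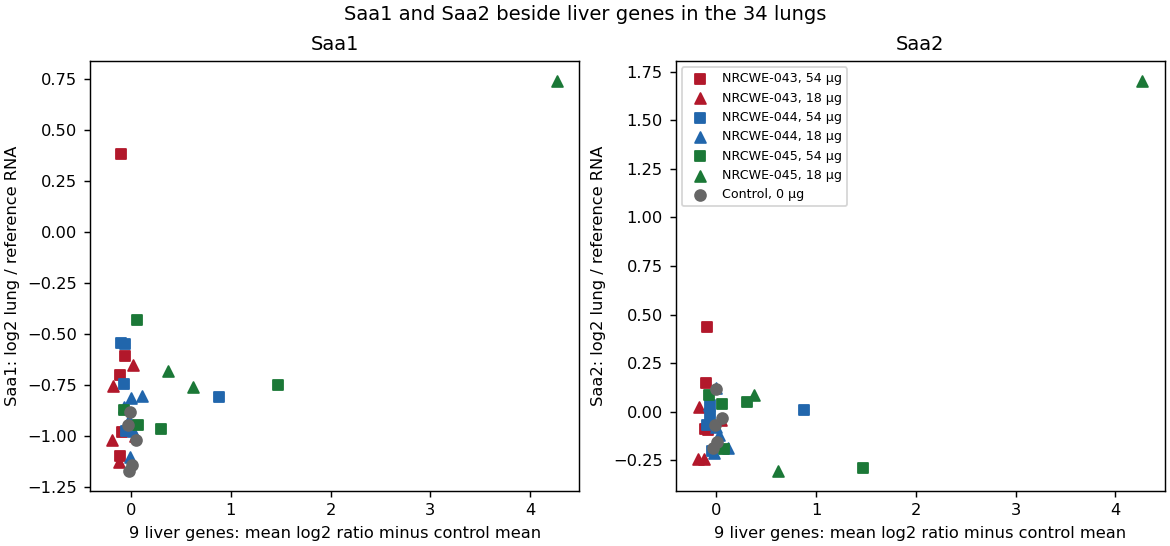
Log2 ratio of Saa1 (left) and Saa2 (right, Cy3 not above background) in each array against the mean log2 ratio of 9 liver genes less the control mean. Replicate 2 of NRCWE-045 at 18 µg stands apart at a liver value of 4.27 with the highest Saa1 (0.74) and Saa2 (1.70), while replicate 1 of NRCWE-043 at 54 µg has a high Saa1 (0.38) at a liver value of -0.10.

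No member passed the test in any of the 18 comparisons. In each of the 6 comparisons of a group with controls and in the pair over the 3 materials, 0 of the 3 tested members and 0 of 29316 units (0%) passed at an adjusted p under 0.05 with limma. The members were chosen with earlier results of these data known. Counts of members here and below are therefore no independent test against the share of all units. At an unadjusted p under 0.05, Saa3 and Lcn2 were past the threshold at 54 µg over the 3 materials (2 of 3 members, against 5.6% of all units) and with NRCWE-043 at 54 µg (2 of 3, against 5.62%). Saa3 was the 1 member past it with NRCWE-044 (against 5.86% of units) and with NRCWE-045 (3.92%) at 54 µg, and Saa1 the 1 with NRCWE-045 at 18 µg (7.93%). With NRCWE-043 and NRCWE-044 at 18 µg and over the 3 materials at 18 µg 0 of 3 were, against 4.36%, 3.14% and 3.91% of units. Several of these counts changed when 1 array was left out. Without replicate 1 of NRCWE-043 at 54 µg, Lcn2 was no longer past the threshold in its group (unadjusted p = 0.23) or over the 3 materials (0.058), and Saa3 was in both. Without control replicate 3 Saa3 was the 1 member past it for NRCWE-043 and over the 3 materials at 54 µg, and 0 of 3 were for NRCWE-044 and NRCWE-045. With 1 array left out at a time, Saa3 was past it in 2 of 10 fits for NRCWE-044 and 4 of 10 for NRCWE-045 at 54 µg. Over the 3 materials at 54 µg Lcn2 was past it in 12 of 20 such fits and Saa3 in 20 of 20. For NRCWE-043 at 54 µg Lcn2 was so in 6 of 10 and Saa3 in 10 of 10. Without replicate 2 of NRCWE-045 at 18 µg Saa1 was not past it (unadjusted p = 0.17).

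Between 54 µg and 18 µg, 0% of units and 0 of 3 members passed after adjustment, over the 3 materials and within each. At an unadjusted p under 0.05, 2 of 3 members, Saa3 and Lcn2, were past the threshold over the 3 materials (against 3.71% of units). Within materials these were Saa3 for NRCWE-043 (3.13% of units), 0 of 3 for NRCWE-044 (5.22%) and Saa1, lower at 54 µg by -0.56 ± 0.25, for NRCWE-045 (2.37%). With 1 array left out, Saa3 for NRCWE-043 ran between 0.36 and 1.37 and was past the threshold in 4 of 10 fits, the lowest being that without replicate 1 at 54 µg. Without replicate 2 at 18 µg Saa1 for NRCWE-045 was -0.073, and Saa3 over the 3 materials was 0.60 (unadjusted p = 0.073).

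The materials were also set against each other at the same dose, in 6 pairs. At 54 µg, NRCWE-043 differed from NRCWE-044 and NRCWE-045 in Saa3 by 0.49 and 0.50, with 95% intervals of -0.55 to 1.54 and -0.54 to 1.54. Without replicate 1 of NRCWE-043 both turned, to -0.19 and -0.18. NRCWE-044 and NRCWE-045 differed by 0.01 in Saa3 (-1.03 to 1.05) and by 0.05 in Lcn2 (-0.53 to 0.64). The interval of Saa3 between NRCWE-044 and NRCWE-045 holds differences of 2-fold either way. At 18 µg, Saa1 was lower with NRCWE-043 than with NRCWE-045 by -0.68 ± 0.25, and lower with NRCWE-044 than with NRCWE-045 by -0.68 ± 0.24. Their limma adjusted p = 0.028 over the 6 pairs, and adjusted p = 0.26 and adjusted p = 0.47 over all units. Without replicate 2 of NRCWE-045 at 18 µg both were -0.19. Among all units 130 (0.443%) differed between NRCWE-043 and NRCWE-045 at 18 µg, 3 (0.0102%) between NRCWE-043 and NRCWE-044 at 18 µg, and 1 (0.00341%) between NRCWE-043 and NRCWE-045 at 54 µg, with no member among them, and 0 (0%) in the other 3 pairs. At an unadjusted p under 0.05, Saa1 was the 1 of 3 members past the threshold in both 18 µg pairs with NRCWE-045, against 10.7% of units for NRCWE-043 and 6.15% for NRCWE-044. In NRCWE-043 against NRCWE-044 at 18 µg 0 of 3 were (5.55% of units), and at 54 µg 0 of 3 in each pair, against 4.8%, 5.11% and 3.6% of units for NRCWE-043 against NRCWE-044, NRCWE-043 against NRCWE-045 and NRCWE-044 against NRCWE-045. The difference between 54 µg and 18 µg was also set against that of another material in 9 tests, 3 per gene, and none passed (smallest unadjusted p = 0.012, for Saa1 in NRCWE-043 against NRCWE-045).

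Over the 34 arrays, Saa3 and Lcn2 varied together. Their log2 ratios correlated at Pearson r = 0.82 and Spearman rho = 0.66 (permutation p = 1e-05, the smallest that 100000 permutations can give, and 5e-05; 6e-05 and 3e-04 adjusted over 6 pairs). Without the 2 arrays farthest from the median, replicate 1 of NRCWE-043 and replicate 4 of NRCWE-045, both at 54 µg, r was 0.69. After removing slide and group means it was 0.86. The permutation p-values here and below are for the 34 arrays together and take no account of slide or group. By slide r was 0.94 and 0.91 on slides 1 and 2 with 8 arrays each, and -0.17, 0.91, 0.91 and 0.75 on slides 3, 4, 5 and 6 with 4 or 5 arrays each. Slide 3 was the exception, as it was for the dose difference.

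Saa1 correlated with Saa3 at r = 0.55 and rho = 0.59 (adjusted permutation p = 0.015 and 8.7e-04), and at r = 0.72 without the 2 farthest arrays. It was 0.53 after removing slide and group means, and between -0.02 and 0.97 within slides. Saa1 and Lcn2 gave r = 0.40 and rho = 0.46 (adjusted p = 0.034 and 0.014), 0.58 without 2 arrays, 0.56 after removing slide and group means and between -0.11 and 0.97 within slides. Saa1 and Saa2 gave r = 0.79 and rho = 0.31 (adjusted p = 8.1e-04 and 0.11), but r = 0.16 without the 2 arrays farthest out, so that relation rested on those lungs, the pair in which Saa2 was well above background. It was 0.79 after removing slide and group means and between -0.33 and 0.96 within slides. Shared signal between the Saa1 and Saa2 probes was not tested. Saa2 with Saa3 (r = 0.11, rho = 0.19) and with Lcn2 (r = -0.06, rho = -0.12) gave adjusted p of 0.35 or more.

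**Figure D5:**
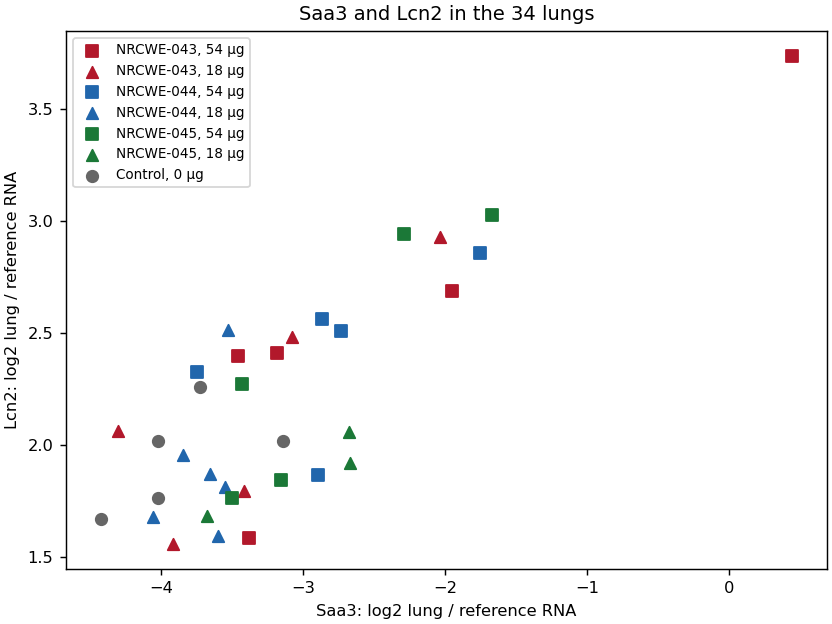
Log2 ratio of Lcn2 against that of Saa3 in the 34 arrays, by material (colour) and dose (shape). The 2 genes vary together over the arrays (r = 0.82), with replicate 1 of NRCWE-043 at 54 µg at the upper right.

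The named genes whose log2 ratios were most like those of Saa3 over the 34 arrays, of 17158 compared, were Ccl2 (r = 0.89), Ly6i (0.89), Noxo1 (0.88), Ly6f (0.88) and Ccl7 (0.84), with Spearman rho of 0.80, 0.68, 0.57, 0.73 and 0.64 in the same order. Ccl2 and Ccl7 are chemokines that draw monocytes, Ly6i and Ly6f are lipid-anchored surface proteins, and Noxo1 organises NADPH oxidase 1. For Lcn2 they were Noxo1 (0.86), Ly6f (0.85), Ly6i (0.84), the chemokine Ccl9 (0.83) and Saa3 itself (0.82), with rho of 0.65, 0.81, 0.69, 0.79 and 0.66. Ly6i was 1.02 ± 0.42 and Ly6f 1.00 ± 0.37 log2 units above controls at 54 µg over the 3 materials, against 0.76 ± 0.24 for Ccl9, 0.65 ± 0.32 for Ccl7, 0.49 ± 0.20 for Noxo1 and 0.46 ± 0.25 for Ccl2. Ly6i and Ly6f belong to a family of similar genes, so their probes may share signal.

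For Saa1 the most alike were Fgl1 (r = 0.81), Arg1 (0.78), Rgs16 (0.77), Fgg (0.76) and Stra6l (0.76), with rho of 0.46, 0.38, 0.72, 0.23 and 0.68. For Fgl1, Arg1 and Fgg rho lay far below r, more so than for Rgs16 and Stra6l. Whether their r rested on the lung with the liver mean of 4.27, which was also highest for Saa1, was not tested. Fgg is a fibrinogen chain made in the liver, Arg1 is arginase 1, and Rgs16 is a regulator of G protein signalling. No such genes are given for Saa2, whose ratios had a detected Cy5 signal on 2 arrays and a detected Cy3 signal on 0. At 54 µg over the 3 materials, Rgs16 was 0.63 ± 0.15 and Stra6l 0.58 ± 0.16 log2 units above controls. Fgg was at 0.17 ± 0.41, Fgl1 at 0.14 ± 0.23 and Arg1 at 0.10 ± 0.26.

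The genes around the 4 members in the pathway were taken as lists, and 0 genes of any list passed the test at either dose. At 54 µg over the 3 materials, where 49.2% of all units lay above controls around a median change of -0.00, 12 of 15 tested genes for inducing cytokines and their receptors lay above controls (median 0.03). Interleukin-6 (Il6) was 0.45 ± 0.19 above controls (unadjusted p = 0.021, adjusted p = 0.81), with means of -1.94 ± 0.39, -2.16 ± 0.34 and -2.11 ± 0.40 for the 3 materials in number order at 54 µg and -2.52 ± 0.36 in controls. Tnf was 0.29 ± 0.13 above, Il17ra 0.28 ± 0.14 and Il1b 0.26 ± 0.25. Of 10 signalling and transcription genes 8 lay above controls (median 0.08), with Nfkb2 at 0.24 ± 0.12, Bcl3 at 0.18 ± 0.13, the feedback inhibitor Socs3 at 0.15 ± 0.09 and Cebpd, which encodes a C/EBP factor, at -0.29 ± 0.23.

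Of 22 other acute phase proteins tested 15 lay above controls (median 0.12). Complement C3 was 0.41 ± 0.18 above (unadjusted p = 0.033, adjusted p = 0.84), complement factor B (Cfb) 0.30 ± 0.17 and orosomucoid Orm2 0.33 ± 0.32, while hepcidin (Hamp) was at -0.31 ± 0.45. Of 11 receptors and binding partners 3 lay above controls (median -0.07). Among them Tlr2, a receptor reported for serum amyloid A, was 0.35 ± 0.12 above (unadjusted p = 0.0051, adjusted p = 0.63), and the formyl peptide receptors Fpr2 and Fpr1 were at -0.23 ± 0.26 and -0.22 ± 0.19, with Cd36 at -0.22 ± 0.13. Of 8 iron handling genes 6 lay above controls (median 0.07), with lactoferrin (Ltf) at -0.23 ± 0.72, Slc11a1 at 0.14 ± 0.13, Bdh2 at 0.12 ± 0.14 and the iron exporter Slc40a1 at 0.12 ± 0.10. At 18 µg, where 50.3% of units lay above controls, the medians of the 5 lists, in the order given, were 0.07, 0.06, 0.08, -0.12 and 0.02. Il1a, Il17a and Crp were too dim to be tested, and Serpina3g and Chi3l1 were not matched on the array.

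Markers of other cell types were set beside Saa3 and Lcn2. The 7 monocyte and interstitial macrophage markers on the array were all well above background, and 7 of 7 lay above controls at 54 µg over the 3 materials (median 0.19), as did 4 of 7 at 18 µg (median 0.04). Their mean, less the control mean, ran between -0.13 and 0.87 with NRCWE-043, 0.21 and 0.36 with NRCWE-044 and -0.04 and 0.37 with NRCWE-045 at 54 µg, and between -0.29 and 0.28 in controls. The value of 0.87 was that of the lung highest for Saa3 and Lcn2. Of 12 neutrophil markers 9 lay above controls at 54 µg over the 3 materials (median 0.02). By material 9 did with NRCWE-043 (median 0.09), 9 with NRCWE-044 (0.32) and 1 with NRCWE-045 (-0.12). The mean of the neutrophil markers was 0.43 in the lung highest for Saa3 and Lcn2. It ran between -0.49 and 0.98 over the 54 µg lungs and between -0.29 and 0.38 in controls. The highest neutrophil mean of all arrays, 1.32, was in replicate 1 of NRCWE-045 at 18 µg, where Lcn2 was at 1.92, within the range of the controls.

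Of 8 fat cell markers 3 lay above controls at 54 µg, and their mean ran between -1.16 and 3.39 over the 54 µg lungs and between -1.20 and 1.05 in controls. The lung at 3.39, replicate 1 of NRCWE-044, had Lcn2 at 1.86 and Saa3 at -2.90. That at 2.64, replicate 4 of NRCWE-045, had Lcn2 at 3.03 and Saa3 at -1.67. The lung highest for Saa3 and Lcn2, replicate 1 of NRCWE-043, was at 0.67. Over the 3 materials, 8 of 8 airway secretory markers lay below controls at 54 µg (median -0.51). At 18 µg 7 of 8 did (median -1.03), and with NRCWE-044 at 54 µg 4 of 8 (median 0.008). Their mean ranged between -1.68 and 1.65 over the 54 µg lungs and between -0.92 and 1.17 in controls. It was 1.65, 1.47 and 1.19 in the 3 lungs named above for fat cell markers, in that order. Again over the 3 materials at 54 µg, 5 of 7 alveolar type 2 markers lay above controls (median 0.02). So did 3 of 8 alveolar macrophage (-0.06), 2 of 5 mesothelial (-0.05) and 3 of 5 adventitial fibroblast markers (0.02). Ly6g, Ly6c2 and Scgb3a2, markers of neutrophils, monocytes and airway cells, were not matched on the array, and Ltf and Fgb stand in both a marker list and a pathway list. No gene of a marker list passed the test at either dose. The part of these cell types in the Saa3 and Lcn2 values was not tested. In whole-lung RNA, more cells of a type and more RNA per cell cannot be told apart, and the same holds for fewer cells and less RNA.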

How the data were processed

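Lung RNA (200 ng per array) was labelled with Cy5 and reference RNA with Cy3 on every array, with no dye swap. Per the file headers, the authors read the 34 arrays with version 11.0.1.1 of Agilent's Feature Extraction software. The deposited files give the median intensity of each spot and its local background and a processed intensity, and flags (a score of 0 or 1) per spot. The deposited table of the whole series holds log2 ratios of Cy5 to Cy3, each array centred near 0 (medians between -0.04 and -0.00). It followed the scanner ratios with a correlation of 0.935 to 0.989 and a slope of 0.875 to 0.979, and how it was made is not given in the sources used here.

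Background was corrected with limma's normexp (offset 50), and ratios were normalised by loess within each array with control and irregular spots at weight 0 (limma 3.58.1, statmod 1.5.0, R 4.3.3). Spots of a probe were averaged, and a gene was represented by its probe with the highest mean Cy5 signal. Probes with no gene name in RefSeq GRCm38.p6 were kept as units of their own. The test took the 29316 of 37074 units whose Cy5 signal was well above background on 3 or more arrays. Group means of all 34 arrays were fitted with limma's lmFit and eBayes in 18 comparisons, p-values were adjusted by Benjamini-Hochberg over all 29316 units, and 0.05 was the threshold. The 3 materials at a dose were averaged with equal weight. The fit was tested on simulated data. No spot was saturated, and no pair of arrays was identical. The headers name build mm9, and coordinates are given for the RefSeq promoter windows alone, in their own build.

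The members and lists were chosen with earlier results of these data known. Genes named are the 4 members, the 5 named genes most correlated with each (not given for Saa2, too dim), and up to 4 per pathway list with the largest change at 54 µg. Alternatives were no background subtraction, processed signals, the deposited table, slide as a fixed or random block, no filter, every probe a unit, array weights, only the 2 groups compared, leaving out each array, and, added after seeing the data, the Cy5 channel alone. The labels state 5 samples per group, whereas the groups here hold 3 to 6.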

Additional observations from a re-analysis of the deposited data

Results flagged for a closer look

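Saa2 was left out of the tests for low signal, yet was well above background on 2 arrays. Its Cy5 signal was 295 in replicate 2 of NRCWE-045 at 18 µg and 123 in replicate 1 of NRCWE-043 at 54 µg, against 79 to 90 in controls. The Cy3 signal of the Lcn2 spot, which reads the common reference RNA, was 9388 in replicate 1 of NRCWE-043 at 54 µg, against 2125.5 to 3149 in controls. By Dixon's test no lung stood apart from its group for a member in the 24 combinations of 4 genes and 6 groups examined, where chance flags about 1 in 20. With 5 or 6 lungs in a group this test can miss a lung that lies far out. It did not flag replicate 1 of NRCWE-043 at 54 µg, whose Saa3 was 0.44 against at most -1.96 in the rest of its group. The Saa2 ratios among the combinations were mostly near background. NRCWE-045 at 18 µg, with 3 lungs, is too small for that test, so its replicate 2 was not examined by it.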

How the results depend on the processing

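No member passed the test under any of the 504 values from other settings (smallest adjusted p = 0.18) or the 642 values with 1 array left out (smallest 0.086). The direction was the same in 491 and 605 of them, and 13 and 37 turned. The cause was not tested. Saa1 in NRCWE-043 against NRCWE-044 at 18 µg (0.0016) was -0.0028 with no background subtraction, -0.011 with processed signals, -0.041 with slide as a fixed block, -0.027 with slide as a random block and -0.028 with array weights. Saa3 in NRCWE-044 against NRCWE-045 at 54 µg was -0.00055 with no background subtraction, and Saa3 in NRCWE-043 against NRCWE-045 at 18 µg was 0.038 with slide as a fixed block. Lcn2 in NRCWE-044 against NRCWE-045 at 18 µg was -0.062 and -0.034 with slide as a fixed and a random block, in NRCWE-043 against NRCWE-044 at 54 µg -0.073 and at 18 µg over the 3 materials -0.0073 with array weights. With the Cy5 channel alone, Lcn2 with NRCWE-044 and NRCWE-045 at 18 µg was 0.096 and 0.091 above controls. The correlation of Saa2 with Lcn2 was 0.084 after removing slide and group means. With 1 array left out, NRCWE-043 against NRCWE-044 at 54 µg ran between -0.12 and 0.25 for Saa1, -0.19 and 0.78 for Saa3 and -0.15 and 0.39 for Lcn2, and NRCWE-043 against NRCWE-045 at 54 µg between -0.054 and 0.32, -0.18 and 0.79, and -0.099 and 0.44. NRCWE-044 against NRCWE-045 at 54 µg ran between -0.25 and 0.29 for Saa3 and -0.097 and 0.22 for Lcn2, and at 18 µg between -0.10 and 0.10 for Lcn2. NRCWE-043 against NRCWE-044 at 18 µg ran between -0.063 and 0.055 for Saa1. The 54 against 18 µg difference ran between -0.11 and 0.14 for Saa1 over the 3 materials and between -0.14 and 0.37 for Saa3 with NRCWE-045. Lcn2 against controls ran between -0.030 and 0.12 at 18 µg over the 3 materials, -0.16 and 0.037 with NRCWE-044 at 18 µg and -0.14 and 0.043 with NRCWE-045 at 18 µg. The number of units called, 130 for NRCWE-043 against NRCWE-045 and 3 for NRCWE-043 against NRCWE-044 at 18 µg, 1 for NRCWE-043 against NRCWE-045 at 54 µg and 0 elsewhere, moved as follows. With no background subtraction the 130 became 207. With processed signals it was 3, with 1 for NRCWE-043 against NRCWE-044 at 18 µg, 0 for NRCWE-043 against NRCWE-045 and 1 for NRCWE-044 against NRCWE-045 at 54 µg. With the deposited table NRCWE-043 against NRCWE-044 at 18 µg gave 1. With slide as a fixed block the 2 pairs at 18 µg gave 21 and 0, and NRCWE-044 and NRCWE-045 at 54 µg against controls and NRCWE-043 against NRCWE-044 at 54 µg 1 each. With slide as a random block they gave 401 and 11, NRCWE-043 against NRCWE-044, NRCWE-043 against NRCWE-045 and NRCWE-044 against NRCWE-045 at 54 µg 22, 4 and 6, NRCWE-044 at 54 µg against controls 8 and the 3 materials at 54 µg 4. With array weights these were 0 and 10, then 2, 7 and 5, then 31 and 3, with 1 for NRCWE-043 at 54 µg against controls and 1 for 54 against 18 µg of NRCWE-044. With the Cy5 channel alone the 130 became 0, and NRCWE-044 and NRCWE-045 at 54 µg against controls gave 1 each. With only the 2 groups compared, NRCWE-044 against controls gave 1 at 54 µg and 5 at 18 µg. With 1 array left out, the calls ran between 0 and 436 for NRCWE-043 against NRCWE-045, 0 and 34 for NRCWE-043 against NRCWE-044 and 0 and 133 for NRCWE-044 against NRCWE-045 at 18 µg, and between 0 and 3 for NRCWE-043 against NRCWE-045 at 54 µg. Against controls they ran between 0 and 110 for NRCWE-045 at 18 µg, 0 and 3 for NRCWE-043, 0 and 13 for NRCWE-044 and 0 and 6 for the 3 materials at 54 µg, and for 54 against 18 µg between 0 and 3 for NRCWE-044 and 0 and 21 for NRCWE-045. No paired analysis was possible because replicate numbers were given in accession order only. Signal over background limits Saa2, which was measured on 2 arrays.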
